A study of Bos taurus with 16 samples.

Results

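A set of 10 genes of bacterial sensing was followed in bovine endometrium, the lining of the uterus, through the weeks after parturition. They are CD14, LY96, LBP, TLR2, TLR4, TLR5, MYD88, TREM1, NOD1 and NOD2, and they were chosen by name, through every array probe that carries the gene's symbol. This gave 26 probes for the 10 genes, among 43653 probes in all and 16068 named genes. The tissue came from 4 fertile cows, and each cow was biopsied with forceps in the uterine horns at nominal days 10, 30, 50 and 100. The true sampling days were 9 or 10, 29 or 30, 49 to 51, and 99 or 100. Every group therefore holds the same 4 untreated animals, there is no cow that had not calved, and a day is always compared with other days of the same cows. Breed and age of the cows are not given in the sources used here. Total RNA was labelled with Cy3 and hybridised to Agilent oligonucleotide arrays, 1 array per cow and day, which makes 16 arrays.

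After calving the bovine uterus is commonly colonised by bacteria, and its lining has to recognise their products. Lipopolysaccharide of Gram-negative bacteria is picked up by the soluble protein LBP, passed to CD14, and presented to the receptor TLR4, which signals in complex with the small protein LY96, also called MD-2. TLR2 recognises bacterial lipoproteins and TLR5 recognises flagellin, and all of these receptors signal through the adaptor MYD88 towards NF-kB and inflammatory cytokines. NOD1 and NOD2 sense fragments of bacterial peptidoglycan inside the cell. TREM1 is a receptor of neutrophils and monocytes that amplifies the signals of the other receptors through the adaptor TYROBP.

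Each probe is a 60-base oligonucleotide, and its letters matter here because probes of one gene did not always give the same pattern. Probes are named by their start in the target transcript, and their genome positions are given as in the deposited files (bovine build Btau_3.1). Positions relative to exons and untranslated regions were not analysed here. Capitals mark bases in a run of 16 or more that is also found, on either strand, in a probe of another gene. Lower-case letters are not in such a run. Whole probes are printed for CD14 and TLR2 as examples of probes without a shared run, and 30-base stretches are printed for TLR2 and TREM1 where capitals prevail. CD14 lies on chromosome 7, minus strand, and its probe at position 727 covers chr7:51086096-51086155. The TLR2 probe at 2247 covers chr17:4282730-4282789 and that at 2771 covers chr17:4282206-4282265, both on the minus strand. The TREM1 probe at 1106 covers chr23:15763094-15763153 on the minus strand, and bases 23 to 52 of it are printed.
CD14 at 727: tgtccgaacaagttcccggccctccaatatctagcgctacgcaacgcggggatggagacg
TLR2 at 2247: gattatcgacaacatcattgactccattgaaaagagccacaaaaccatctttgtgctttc
TLR2 at 2771, bases 1 to 30: ATGACAGAGGATGAGATGGTTGGATGGCtt
TREM1 at 1106, bases 23 to 52: ATGTGCTGCAACTAAGACCTGGCACAGCCA

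Of the 26 probes, 5 (19.2%) held such a shared run, 1 each of LBP, TLR2, TLR4, TREM1 and NOD2, against 14.8% of all 43653 probes. The shared bases numbered 28 in the TLR2 probe at 2771 and 41 in the TREM1 probe. As many shared bases as in the TLR2 probe occurred in 3.24% of all probes, and as many as in the TREM1 probe in 1.57%. The TLR2 run was found in probes named LOC511936 and NEPN. The TREM1 runs were found in probes of MED24, NDE1 and AJUBA and in 1 probe without a gene symbol.

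A level below is a log2 value relative to percentile 75 of its array, so a level of 0 is that percentile and a step of 1 is a doubling. Levels of different probes are not comparable with each other. Probes were tested if the scanner software called them well above background on 4 or more of the arrays. This kept 33182 probes and 22 of the 26 probes studied here, with at least 1 probe for each of the 10 genes. The probes left out were LY96 at 1160, well above background on no array, TLR5 at 2740, above it on 1 array, and LBP at 681 and at 936. Differences were tested with limma within cows, and "passed" means a Benjamini-Hochberg adjusted p under 0.05 over all tested probes. A gene was counted by its probe of highest mean level. The comparisons with day 10 share the day 10 arrays and are not independent of each other.

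Between 61.1% and 76.9% of an array's probes were well above background, the median processed signal from 50.5 to 153.3, and replicate arrays of a day correlated across probes with r from 0.90 to 0.98. The biopsies are bulk tissue, in which fewer cells of a type and less RNA per cell cannot be told apart. Markers of the labelled tissue were present, with all 9 stromal fibroblast markers and 9 of 10 tested epithelial markers well above background on every array. The cell make-up differed between biopsies, and marker levels below are means over a list of each gene's log2 level minus its own mean over the 16 arrays. The epithelial level was 2.79 in cow 1 and -3.54 in cow 2 at day 100, while the smooth muscle level was -3.77 and 2.19 in the same arrays.

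Of the 10 genes, 1 passed at each comparison with day 10, and it was CD14 each time. This was 1 of 10 at day 30 against day 10, where 0.419% of all tested probes passed in either direction. At day 50 against day 10 it was again 1 of 10, beside 1.65% of all tested probes. At day 100 against day 10 it was 1 of 10, beside 4.6% of all tested probes. For day 10 against the mean of the 3 later days it was 1 of 10, beside 4.77%, and in the F test for any difference between days it was 1 of 10, beside 1.03%. Between the later days limma called 0 of the 10 genes and 0.0% of all tested probes. At an unadjusted p under 0.05 those comparisons held 0, 3 and 0 of the 10 genes for day 50 against 30, day 100 against 30 and day 100 against 50. Over all 33182 tested probes the unadjusted counts were 3093, 4232 and 1041. Against day 10 the unadjusted counts were 4, 3 and 2 of the 10 genes at days 30, 50 and 100, beside 4658, 6164 and 8541 of the 33182 probes. For day 10 against the mean of the later days they were 3 of the 10 genes and 7986 probes.

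CD14, the surface and soluble receptor that hands lipopolysaccharide to TLR4, was high at day 10 and lower on all later days in every cow. At day 10 its level at the probe at 2720 was 3.83, 1.82, 2.76 and 4.02 in cows 1 to 4. At day 30 it was -0.63, -0.78, 0.45 and 0.56, and at day 50 it was -0.13, -0.96, 0.38 and 0.91. At day 100 it was -1.16, -0.45, 1.28 and 0.01. The lowest day 10 array, 1.82 in cow 2, lay above the highest of the 12 later arrays, 1.28 in cow 3 at day 100. All 4 day 10 arrays lay above all 12 later arrays in each of the 3 CD14 probes and in no other probe of the 10 genes, a pattern found in 1.52% of all tested probes.

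CD14 fell by 3.21 ± 0.45 (log2, estimate ± SE, n = 4 cows) from day 10 to day 30 (limma adjusted p = 0.0147), which is 9.23-fold with a 95% interval of 4.66 to 18.3. It fell by 3.06 ± 0.45 to day 50 (adjusted p = 0.0144) and by 3.19 ± 0.45 to day 100 (adjusted p = 0.00702). Day 30 minus day 10 was -4.46, -2.59, -2.31 and -3.46 in cows 1 to 4, so the fall was seen in 4 of 4 cows and was larger in cows 1 and 4. The later days did not differ from each other beyond their spread. Day 50 minus day 30 was 0.15 (95% interval -0.84 to 1.14), day 100 minus day 30 was 0.02 (-0.97 to 1.01), and day 100 minus day 50 was -0.13 (-1.12 to 0.86).

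The other CD14 probes were likewise lower on each later day in 4 of 4 cows. At the probe at 1215 the differences of days 30, 50 and 100 from day 10 were -3.41, -3.21 and -3.07, each ± 0.41 (adjusted p = 0.00598, 0.00716 and 0.00566). The probe at 727, whose letters are printed above, gave -3.93, -3.1 and -3.70, each ± 0.48 (adjusted p = 0.00692, 0.0177 and 0.00525). At day 30 the probe at 727 was well above background on 1 of 4 arrays, so its levels there are close to its floor. With normexp background correction its differences were -1.73, -1.76 and -1.23 (adjusted p = 0.157, 0.0578 and 0.101), and none passed. The day 30 calls of both probes were lost without cow 1, 2 or 4 (adjusted p = 0.143, 0.0629 and 0.145 at 727, and 0.084, 0.0642 and 0.142 at 1215). At day 50 the call at 727 was lost without any one cow or without the day 10 array of cow 1 (0.0517 to 0.118), and that at 1215 without cow 1, 3 or 4 (0.0557 to 0.0706). At day 100 the call at 1215 was lost without cow 1 or 4 (0.0524 and 0.0589). Over the 16 arrays the 3 probes correlated pairwise with r of 0.87 to 0.97.

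Day 10 exceeded the mean of the later days by 3.15 ± 0.37 in CD14 (adjusted p = 0.00216), and this call held when any one cow was left out. The calls for single days did not all hold. Day 30 was lost without cow 1 (adjusted p = 0.154), cow 2 (0.092), cow 4 (0.176), the day 10 array of cow 1 (0.0592) or the cow term (0.0516). Day 50 was lost without cow 1, 2, 3 or 4 (0.0798, 0.0602, 0.0706 and 0.0672), and day 100 without cow 1 or 4 (0.0563 and 0.0636).

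**Figure D1:**
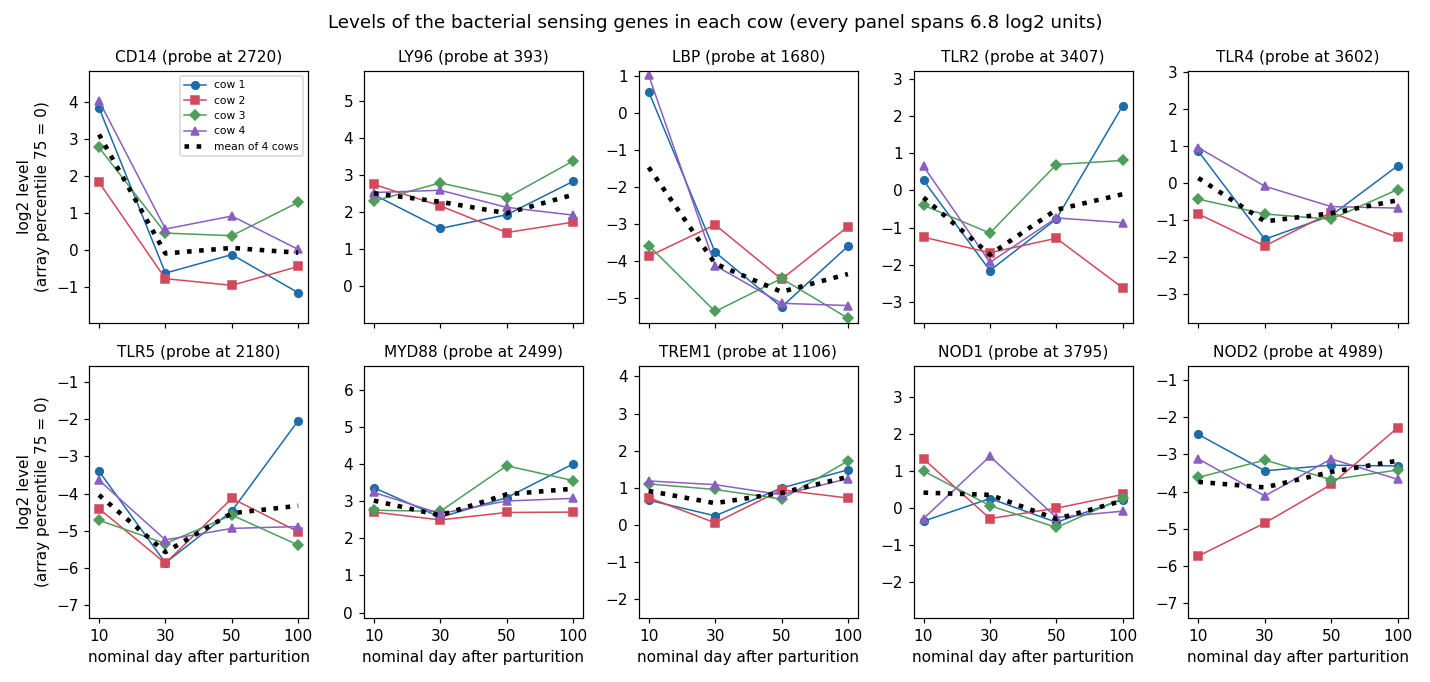
Log2 level (array percentile 75 = 0) of each of the 10 genes against nominal day after parturition, with 1 coloured line per cow and the mean of the 4 cows dotted; every panel spans 6.8 log2 units, and TLR2 is shown by its probe at 3407. CD14 is high in all 4 cows at day 10, LBP in cows 1 and 4, and the other genes cross between cows.

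Macrophage markers, and some neutrophil markers, were also higher at day 10. All 13 tested macrophage markers were higher at day 10 than on the later days (limma, adjusted p under 0.05 each), among them the receptor CSF1R by 2.23 ± 0.22 and the lysosomal protein CD68 by 2.16 ± 0.30. Without cow 1, 2, 3 or 4 the count was 1, 10, 10 and 6 of 13. The macrophage level lay between 0.83 and 2.56 in the day 10 arrays, between -1.35 and 0.39 in those of day 30, between -1.63 and 1.1 in those of day 50, and between -1.44 and 0.10 in those of day 100. Of 6 tested neutrophil markers 3 passed, the calgranulins S100A8, S100A9 and S100A12, and the neutrophil level at day 10 was 4.13 and 3.69 in cows 1 and 4 but 0.40 and -0.01 in cows 2 and 3. With any one cow left out, 0 of the 6 passed. On the later days the neutrophil level was -1.82 to 1.45, a range that holds the day 10 arrays of cows 2 and 3, in which CD14 was high. Of 9 stromal fibroblast markers 1 was higher at day 10, PDGFRB by 1.80 ± 0.41 (limma adjusted p = 0.0325). Of 8 tested T and B cell markers 1 was higher, CD4 by 0.69 ± 0.17 (limma adjusted p = 0.0404). No epithelial, smooth muscle or endothelial marker passed. Over the 16 arrays CD14 correlated with the macrophage level at r = 0.94, the neutrophil level at 0.76 and the stromal fibroblast level at 0.62. These values are a description, since 4 arrays share each cow. No marker on the array was below background on all 16 arrays, and CXCR1 and CXCR2 were on the array but not tested. The part of these cells in the CD14 result was not tested.

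LBP, the acute phase protein that carries lipopolysaccharide to CD14, was high at day 10 in cows 1 and 4 and in no other array. Its probe at 1680 (chr13:67836486-67836545, plus strand) stood at 0.58, -3.86, -3.57 and 1.02 in cows 1 to 4 at day 10. At day 30 the levels were -3.75, -3.01, -5.35 and -4.11, at day 50 they were -5.23, -4.48, -4.46 and -5.13, and at day 100 they were -3.59, -3.06, -5.53 and -5.19. The day 10 arrays of cows 2 and 3 thus lay inside the range of the later arrays, -5.53 to -3.01. Days 30, 50 and 100 differed from day 10 by -2.60, -3.37 and -2.89, each ± 0.98 (adjusted p = 0.279, 0.104 and 0.101). Day 10 minus the later days was 2.95 ± 0.80 with a 95% interval of 1.19 to 4.71 (adjusted p = 0.0591), which did not pass.

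All 5 LBP probes set the day 10 arrays of cows 1 and 4 apart. The probe at 936 stood at -2.52 and -2.08 in those arrays and at -9.57 to -7.00 in all others, where it was nowhere well above background. The probe at 681 was likewise well above background on those 2 arrays alone, at -3.86 and -3.51. The probe at 1524 stood at -0.50 and -0.26 there and at -6.00 and -6.14 in cows 2 and 3 at day 10. Its difference between day 10 and the later days was 4.32 ± 1.02 (adjusted p = 0.0369). This probe was well above background on all 4 arrays at day 10 and on 1, 0 and 1 arrays at days 30, 50 and 100, so it was tested only because of the day on which it is high, and the size of its difference is set against arrays mostly at background. At day 50 this probe was well above background on no array, so its mean level at day 10 was at least 12.3-fold higher (adjusted p = 0.073). That mean, -3.23, joins the high levels of cows 1 and 4 with the low levels of cows 2 and 3. The bound therefore does not apply to each cow. The probe at 1755, which has an 18-base run in common with a probe of ADAM17, differed by 5.17 ± 1.39 (adjusted p = 0.057). The 5 probes correlated pairwise with r of 0.78 to 0.97.

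Leaving out cow 2 brought the LBP probe at 1680 past the threshold, with a difference of 4.05 for day 10 against the later days (adjusted p = 0.0352) and -4.11 for day 100 against day 10 (adjusted p = 0.0454). Leaving out the day 100 arrays of cows 1 and 2 gave 3.24 (adjusted p = 0.0466). Cow 2 was the only cow with a lower level at day 10 than on the later days (-0.35). The other 49 values of LBP under the alternatives kept their direction and did not pass. Cows 1 and 4 at day 10 were also the arrays with the highest neutrophil level, with which LBP correlated at r = 0.82 over the 16 arrays. Its correlation with the macrophage level was 0.48. The part of neutrophils in the LBP values was not tested.

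**Figure D2:**
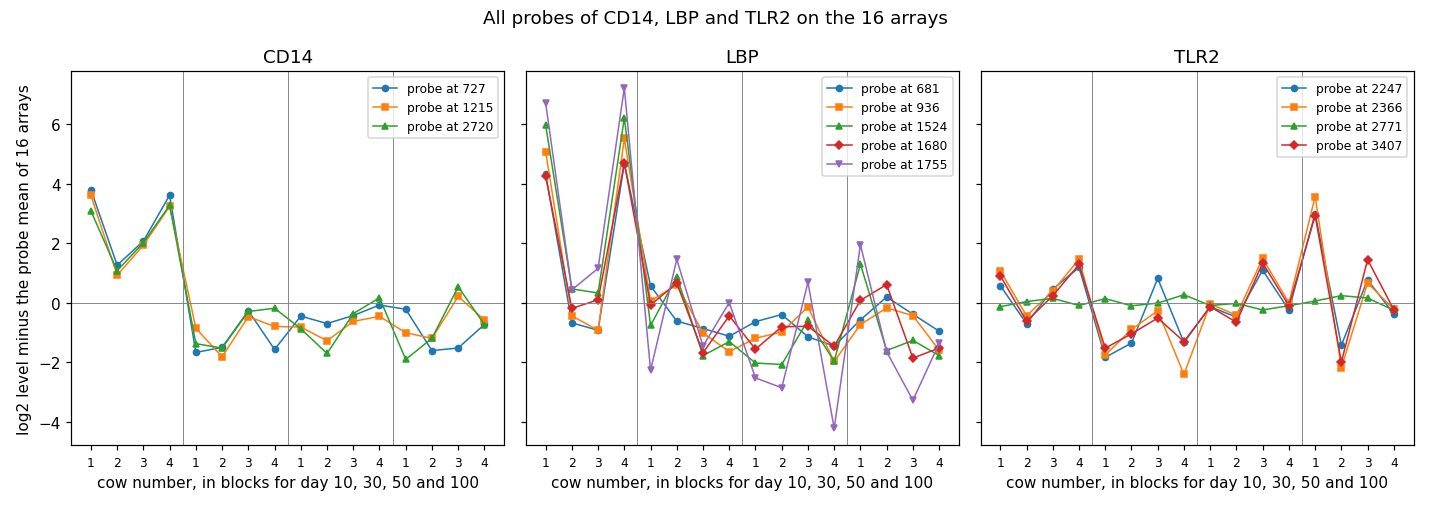
Log2 level minus the probe's mean over the 16 arrays (vertical axis) for each probe of CD14, LBP and TLR2, with arrays ordered by cow within day 10, 30, 50 and 100 (horizontal axis). The CD14 probes run together, the LBP probes are high in cows 1 and 4 at day 10, and the TLR2 probe at 2771 stays flat while the other TLR2 probes move together.

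LY96, which binds lipopolysaccharide within the TLR4 complex, showed no difference that passed. Its probe at 393 stood at 2.47, 2.75, 2.30 and 2.53 in cows 1 to 4 at day 10. On the 12 later arrays it ranged from 1.45 in cow 2 at day 50 to 3.38 in cow 3 at day 100, and all 4 day 10 arrays lay inside that range. The later days lay below day 10 by 0.27 ± 0.28 (95% interval -0.34 to 0.89, adjusted p = 0.586). The probe at 782 gave 0.76 ± 0.37 (adjusted p = 0.232) and correlated with the first at r = 0.65. The fold between day 10 and the later days in CD14, 8.88 with an interval from 5.08 to 15.5, thus stood beside an interval for its partner LY96 that included 0 on the log2 scale. The LY96 probes carry no genome position in the deposited files.

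TLR4, the signalling receptor for lipopolysaccharide, was also highest at day 10 in cows 1 and 4. Its probe at 3602 (chr8:112437692-112437751, plus strand) stood at 0.86, -0.83, -0.43 and 0.96 in cows 1 to 4 at day 10 and at -1.51, -1.69, -0.83 and -0.08 at day 30. At day 50 it stood at -0.87, -0.79, -0.97 and -0.63, and at day 100 at 0.47, -1.46, -0.17 and -0.67. The day 10 arrays of cows 2 and 3 lay inside the range of the later days. Days 30, 50 and 100 differed from day 10 by -1.17, -0.95 and -0.60, each ± 0.41 (adjusted p = 0.241, 0.241 and 0.374).

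Day 10 minus the later days was positive in 4 of 4 cows for each of the 3 TLR4 probes, and none passed. The values were 0.91 ± 0.33 at 3602, 1.05 ± 0.32 at 2936 and 1.23 ± 0.37 at 988 (adjusted p = 0.131, 0.0835 and 0.0799). The probes at 3602 and 2936 correlated at r = 0.98. The probe at 988, which has a 16-base run in common with 1 other probe and was well above background on 8 arrays, correlated with them at 0.52 and 0.55. TLR4 at 3602 correlated with the neutrophil level at r = 0.87, the T and B cell level at 0.77, the smooth muscle level at -0.69, the macrophage level at 0.58 and the epithelial level at 0.49. The part of the biopsies' make-up in the TLR4 values was not tested.

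TLR2, the receptor for bacterial lipoproteins, gave different results from different probes. Its probe of highest mean level, at 2771, stood between 3.85 and 4.37 on all 16 arrays, with an SD of 0.16 over them. An SD as low occurred in 0.256% of tested probes, whose median SD was 0.61. This is the probe with 28 shared bases printed in capitals above, and its differences from day 10 were 0.08, -0.11 and 0.06 at days 30, 50 and 100. The other TLR2 probes, at 2247, 2366 and 3407, hold no shared run and correlated with each other at r of 0.94 to 0.97, but with the probe at 2771 at -0.43 to -0.26. The 3 named genes whose pattern was most like the probe at 2771 were those of the ribosomal proteins RPL36A, RPL37A and RPL32 (r = 0.857, 0.855 and 0.850).

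TLR2 is described further by the probe at 3407 (chr17:4281570-4281629, minus strand), the brightest of those without a shared run, a choice made after the values were seen. At day 10 it stood at 0.27, -1.26, -0.40 and 0.65 in cows 1 to 4, and at day 30 at -2.16, -1.68, -1.15 and -1.94. At day 50 it stood at -0.77, -1.29, 0.70 and -0.74, and at day 100 at 2.29, -2.63, 0.81 and -0.87. All 4 cows were lower at day 30 than at day 10, by 1.55 on average, and the difference did not pass (-1.55 ± 0.71, adjusted p = 0.359). For day 50 the difference was -0.34 ± 0.71 and for day 100 it was 0.09 ± 0.71 (adjusted p = 0.842 and 0.952).

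Day 100 spread TLR2 most, with the highest of the 16 arrays in cow 1 and the lowest in cow 2. These were the arrays with the highest and the lowest epithelial level and with the lowest and the highest smooth muscle level. Over the 16 arrays TLR2 at 3407 correlated with the smooth muscle level at r = -0.92, with the epithelial level at 0.78 and with the macrophage level at 0.35. The probes at 2247 and 2366 gave -0.88 and -0.86 with smooth muscle. The part of the biopsies' make-up in the TLR2 values was not tested.

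TLR5, the flagellin receptor, had its lowest mean level at day 30, although cow 3 was lowest at day 100. Its probe at 2180 (chr16:23622915-23622974, minus strand) stood at -3.40, -4.41, -4.72 and -3.64 in cows 1 to 4 at day 10, and at -5.87, -5.88, -5.35 and -5.25 at day 30. At day 50 it stood at -4.47, -4.13, -4.58 and -4.94, and at day 100 at -2.03, -5.03, -5.39 and -4.89. Day 30 lay below day 10 in 4 of 4 cows, with no overlap between the arrays of these days. All day 10 arrays lay above all day 30 arrays in 4.89% of tested probes. The difference of -1.54 ± 0.55 did not pass (adjusted p = 0.246). Day 50 minus day 30 was 1.06 ± 0.55 and positive in 4 of 4 cows (adjusted p = 0.568). Against the later days, day 10 differed by 0.77 ± 0.45 (adjusted p = 0.317). The level of cow 1 at day 100 stood 2.86 above the next cow of that day.

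MYD88, the adaptor shared by these receptors, showed no difference that passed. Over the 16 arrays its probes at 2499, 713 and 798 ranged over 1.52, 2.97 and 2.53 log2 units. Its probe at 2499 (chr22:11731208-11731267, plus strand) stood between 2.50 and 4.01 on the 16 arrays, lowest in cow 2 at day 30 and highest in cow 1 at day 100. At day 30 the 4 cows lay between 2.50 and 2.73, and at day 100 between 2.71 and 4.01. Day 100 exceeded day 30 in 4 of 4 cows, by 0.72 ± 0.27 (adjusted p = 0.326), and day 30 minus day 10 was -0.40 ± 0.27 (adjusted p = 0.528). Day 10 minus the later days was -0.03 ± 0.22, with a 95% interval of -0.52 to 0.46. The probes at 713 and 798 correlated with the one at 2499 at 0.61 and 0.31 and gave 0.36 ± 0.35 and 0.16 ± 0.34 for day 10 minus the later days. For day 100 minus day 30 they gave 0.41 ± 0.43 and -0.35 ± 0.42, each higher at day 100 in 2 of 4 cows. MYD88 at 2499 and TLR2 at 3407 correlated at r = 0.90, the highest value among the 45 pairs of the 10 genes. With the smooth muscle level MYD88 correlated at -0.91 by its probe at 2499, but at -0.53 and -0.28 by those at 713 and 798. The part of the biopsies' make-up in the MYD88 values was not tested.

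TREM1, which amplifies the responses of neutrophils and monocytes, had no comparison that passed. Its single probe stood at 0.66, 0.73, 1.1 and 1.18 in cows 1 to 4 at day 10. On the later arrays it lay between 0.05, in cow 2 at day 30, and 1.72, in cow 3 at day 100, so the day 10 arrays lay inside the later range. Days 30, 50 and 100 differed from day 10 by -0.33, -0.06 and 0.38, each ± 0.25 (adjusted p = 0.567, 0.932 and 0.357). Day 10 minus the later days was 0.00 ± 0.20 (95% interval -0.44 to 0.45), and -0.11 with arrays scaled on their median. Day 100 exceeded day 30 in 4 of 4 cows, by 0.71 ± 0.25 (95% interval 0.17 to 1.26, adjusted p = 0.31). Of the 60 bases of this probe 41 lie in runs found in 4 probes of other genes, and its level correlated with those of these probes at a median r of 0.36. TREM1 correlated with the neutrophil level at r = 0.26. Among the 10 genes, by their probes of highest mean level, this r ran from -0.03 for NOD1 to 0.87 for TLR4. It was 0.43 for LY96, 0.40 for MYD88 and 0.32 for NOD2. Whether the probe reports TREM1 was not tested.

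Of 9 listed genes that act next to TREM1, 7 were tested and 4 were higher at day 10 than on the later days, where 3.63% of all named genes were. Whether they differ from TREM1 in this was not tested. TYROBP, the signalling adaptor of TREM1, exceeded the later days by 1.95 ± 0.29 (adjusted p = 0.00654), and the kinase SYK by 1.49 ± 0.29 (adjusted p = 0.0179). CARD9, which links SYK to NF-kB, exceeded them by 1.57 ± 0.28 (adjusted p = 0.0138), and TREM2, a receptor of macrophages that uses the same adaptor, by 2.48 ± 0.37 (adjusted p = 0.00598). Each was higher in 4 of 4 cows. Without cow 1, 2, 3 or 4 the count was 0, 4, 2 and 1 of 7.

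NOD1 and NOD2, the intracellular receptors for peptidoglycan fragments, had no comparison that passed. The NOD1 probe at 3795 (chr4:68536459-68536518, plus strand) stood at -0.36, 1.32, 0.99 and -0.29 in cows 1 to 4 at day 10, and at -0.53 to 1.39 on the later days. At day 10 its levels were thus higher in cows 2 and 3 than in cows 1 and 4, the reverse of LBP and TLR4. Its excess at day 10 over the later days was 0.33 ± 0.35 (adjusted p = 0.594), positive in 2 of 4 cows. NOD1 correlated with the epithelial level at r = -0.68 and with the smooth muscle level at 0.43. The part of the biopsies' make-up in the NOD1 values was not tested. The NOD2 probe at 4989 (chromosome 18, bases 18171038 to 18171097, plus strand) stood at -2.46, -5.74, -3.62 and -3.12 at day 10.
In cow 2 NOD2 went from -5.74 at day 10 to -4.85, -3.81 and -2.28 at days 30, 50 and 100, while the other cows stayed between -4.12 and -2.46. The difference between day 100 and day 10 was 0.57 ± 0.57 (adjusted p = 0.553) and became -0.40 without cow 2.

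**Figure D3:**
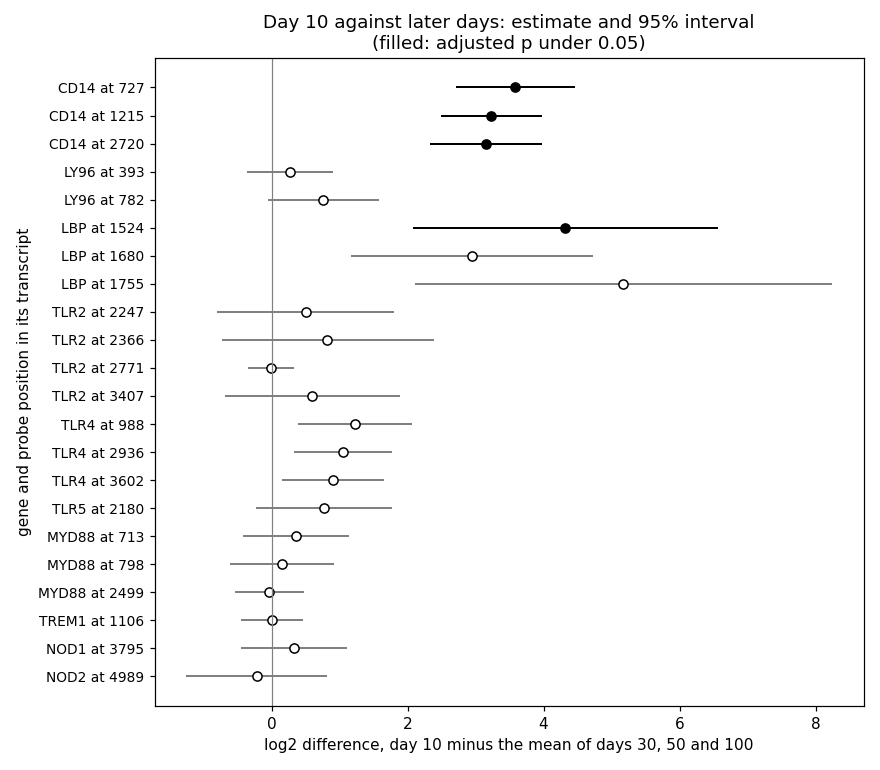
Log2 difference between day 10 and the mean of days 30, 50 and 100 (horizontal axis) for each of the 22 tested probes (vertical axis), with 95% intervals from limma; filled points have an adjusted p under 0.05. The 3 CD14 probes and the LBP probe at 1524 are filled, and the TLR4 intervals lie above 0 without passing.

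Around these 10 genes, 106 symbols of the same pathways were listed, of which 92 had a tested probe. At day 30 against day 10, 7 of the 92 were lower and 0 higher (limma, adjusted p under 0.05), beside 0.483% lower and 0.00767% higher among all 13035 named genes. At day 50, 11 were lower and 0 higher, beside 1.27% lower and 0.729% higher among all named genes. At day 100, 18 were lower and 1 higher, beside 3.06% lower and 1.82% higher. Leaving out cow 1, 2, 3 or 4 left 0, 0, 2 and 0 lower genes at day 30, 0, 1, 0 and 3 at day 50, and 2, 18, 4 and 4 at day 100. The median difference of the 92 genes was -0.92, -0.64 and -0.69 at these days, and that of all named genes was 0.02, -0.03 and 0.01. With normexp correction the medians of the 92 genes were -0.48, -0.44 and -0.16, and without cow 4 that of day 100 was -0.31. Against the mean of the later days, 23 were higher at day 10 and 1 lower, beside 3.63% and 1.72% of all named genes. The number of higher genes was 3, 23, 11 and 5 without cow 1, 2, 3 or 4, and 7 without the day 10 array of cow 1. Between the later days 0 of the 92 genes passed. The counts of 23 and of 18 include ITGAM and CLEC4D, and the day 50 count of 11 includes ITGAM. ITGAM and CLEC4D were tested only because of their day 10 arrays. With probes well above background on at least 12 arrays, 82 of the listed genes were tested. Of these 19 were higher and 1 lower at day 10 than on the later days, and at day 100 against day 10, 14 were lower and 1 higher. At days 30 and 50 against day 10, 5 and 9 were lower and 0 higher.

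Among the other toll-like receptors and their chaperones 2 of 10 tested genes were higher at day 10 than on the later days, beside 3.63% of all named genes. TLR7, a receptor for single-stranded RNA inside endosomes, exceeded the later days by 2.24 ± 0.21 (adjusted p = 0.000527). TLR8, its neighbour in function, exceeded them by 1.87 ± 0.33 (adjusted p = 0.0134). At days 10, 30, 50 and 100 TLR7 was well above background on 3, 2, 3 and 2 of 4 arrays, and TLR8 on 3, 1, 3 and 0. The sizes of both differences are thus set against levels close to the floor. For TLR8 at day 100 the mean levels give only a bound, at least 2.59-fold lower than at day 10. In the signalling chain below the receptors, 1 of 16 adaptors and kinases and 0 of 8 NF-kB genes passed. The 1 gene was BIRC2, a ubiquitin ligase of this chain, which was higher on the later days (day 10 minus later -0.85 ± 0.20, adjusted p = 0.0381). This call was lost with array median scaling, with no filter on dim probes, without the day 10 array of cow 1, and without any one cow. Of 11 tested inhibitors of the pathway 1 passed, NFKBIE, which holds NF-kB in the cytoplasm, at 1.17 ± 0.27 (adjusted p = 0.0338). The difference between these lists was not tested.

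Of 16 other tested pattern receptors and their partners 7 were called higher at day 10, beside 3.63% of all named genes. They were the scavenger receptors MSR1 (1.82 ± 0.24) and CD36 (2.17 ± 0.47), the lectins CLEC7A (2.01 ± 0.29), CLEC4D and MRC1 (2.04 ± 0.37), and the inflammasome genes NLRC4 (2.14 ± 0.37) and PYCARD (1.49 ± 0.35). Their adjusted p ran from 0.00378 for MSR1 to 0.0378 for PYCARD. MSR1 and MRC1 are also on the macrophage marker list. Of 7 genes that handle lipopolysaccharide 3 were called higher, the integrin chain ITGAM, its partner ITGB2 (1.36 ± 0.27, adjusted p = 0.0215), and AOAH, which deacylates lipopolysaccharide (1.70 ± 0.36, adjusted p = 0.025, higher in 3 of 4 cows). ITGAM and CLEC4D were each well above background on 2, 1, 1 and 0 arrays at days 10, 30, 50 and 100, so they were tested only because of their day 10 arrays and the calls say nothing more about them. For day 10 against day 100 their mean levels give only a bound, at least 2.33-fold for ITGAM and at least 1.81-fold for CLEC4D (adjusted p = 0.00985 and 0.0479). The lists of toll-like receptors, pattern receptors and lipopolysaccharide handling were not counted singly with a cow left out. Without cow 1, 3 of all 92 pathway genes were higher at day 10 than later, and 2 of these were inflammatory products. Without cow 2, 3 or 4 the counts over the 92 genes were 23, 11 and 5.

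Of 17 tested inflammatory products 6 were higher at day 10, beside 3.63% of all named genes. The neutrophil attractant CXCL8 exceeded the later days by 4.99 ± 0.89 (adjusted p = 0.0134), and the nitric oxide synthase NOS2 by 2.84 ± 0.30 (adjusted p = 0.00129). The chemokines CCL3 and CCL4 exceeded them by 2.57 ± 0.30 and 2.03 ± 0.35 (adjusted p = 0.00228 and 0.0118). The adhesion molecule ICAM1 exceeded them by 1.94 ± 0.34, and the inhibitory cytokine IL10 by 0.93 ± 0.17 (adjusted p = 0.0123 and 0.0161). Each was higher in 4 of 4 cows, and without cow 1, 2, 3 or 4 the count was 2, 8, 2 and 2 of 17.

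The genes most like each of the 10 in pattern were sought among 10108 named genes above background on all arrays, by Pearson's r over the 16 arrays. Arrays of one cow share a slide and are not independent, so r is a measure of likeness alone. For CD14 they were LAPTM5, BATF3 and NCF4 (r = 0.973, 0.966 and 0.963). For LBP they were LCN2, which binds bacterial siderophores, SOD2, a mitochondrial superoxide dismutase, and CXCL5, a neutrophil attractant (0.937, 0.916 and 0.905). For MYD88 they were CD48, PTPRJ and CIB1 (0.977, 0.968 and 0.965), and for TLR2 at 3407 they were AGPAT3, VAV1 and PTPRJ (0.950, 0.945 and 0.942). TLR4 was most like TSHB (0.907), TLR5 most like NAGPA (0.923) and NOD1 most like HPS4 (0.905). The highest r was lower for LY96 (C5H12orf4, 0.857), TREM1 (TM4SF1, 0.834) and NOD2 (RHBDF1, 0.825).

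**Figure D4:**
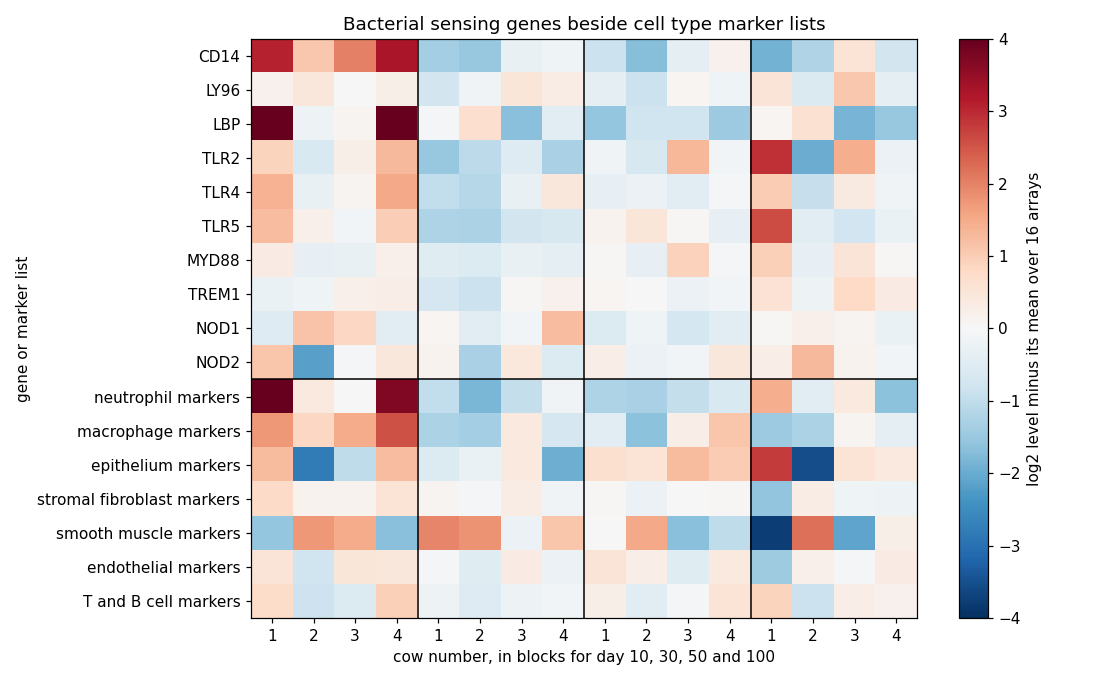
Colours give the log2 level minus its mean over the 16 arrays for the 10 genes (TLR2 by its probe at 3407) and for 7 marker lists (rows) in each cow within day 10, 30, 50 and 100 (columns); the scale ends at -4 and 4 and larger values take the end colours. CD14 follows the macrophage row, and LBP is high with the neutrophil row in cows 1 and 4 at day 10. TLR2 and MYD88, the latter shown by its probe at 2499, run opposite to the smooth muscle row.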

How the data were processed

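RNA of 16 endometrial biopsies, 4 cows at 4 times, was measured on one-colour arrays. The deposited scanner files hold the processed intensity of each spot, from which Agilent's software (Feature Extraction 11.5.1.1, per the file headers) had removed background and spatial trend. The submitters' processing notes name version 10.5.1.1 instead. The deposited value table holds log2 values, and comparison with the scanner intensities showed division by percentile 75 and centring of every probe on its median (r 0.99985 to 0.99997, column medians -0.155 to 0.215). It served as an alternative.

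Spots flagged nonuniform were left out on their array (4 to 125), control spots (1417 of 45220) were left out, and no spot was saturated. The log2 processed intensity minus the array's percentile 75 was averaged over spots of a probe. Probes well above background on at least 4 arrays entered a limma fit (version 3.58.1, R 4.3.3) on day and cow (9 residual degrees of freedom before moderation), two-sided, with Benjamini-Hochberg adjustment over 33182 probes and a threshold of 0.05. The fit was tested on simulated data. The cows are separate animals and each had its own slide, so cow and slide cannot be told apart. The pairing is by animal, per the labels: deviations from the day means correlated with a median of 0.12 within a cow (24 pairs) and -0.04 between cows (72 pairs). The number of arrays limits the precision.

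Gene symbols are those of the array design, updated through the RefSeq gene table of ARS-UCD2.0: 20595 probes by accession, 1408 by gene ID and 376 by synonym, while 10745 were current and 10529 kept the file's name. The 10 genes, the pathway and marker lists, the tests and the alternatives were chosen with earlier results of these data known. The text names all 10 genes, every listed pathway gene that passed in the comparison described, and the genes most like each of the 10 by r. Alternatives were other background corrections, scalings, filters and probe choices, the authors' values, no cow term, and leaving out cows or arrays. The probe choice without shared 16-base runs, and the use of these alternatives on the pathway counts and on each CD14 probe, were added after seeing the data.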

Additional observations from a re-analysis of the deposited data

Results flagged for a closer look

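In 1 of 44 groups of 4 arrays (11 probes at 4 days) 1 cow stood far from the others. TLR5 at day 100 was at -2.03 in cow 1 and between -5.39 and -4.89 in the other cows, so the gap of 2.86 was most of the whole range of 3.35. Chance flags about 1 in 20 such groups. This array also had the highest epithelial and the lowest smooth muscle marker level at day 100, and their part in the TLR5 value was not tested.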

How the results depend on the processing

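Without the pairing by cow (no replicate block) 0 of the 10 genes passed at day 30 against day 10, since CD14 at 2720 moved to an adjusted p of 0.0516 with its difference unchanged at -3.21, while its probes at 727 and 1215 still passed (0.00551 and 0.0153). No other count of the 10 genes changed, while pathway genes lower at day 30 went from 7 to 1. The day 30 count was also 0 without the day 10 array of cow 1, as was the F test's. Leaving out 1 cow gave, against day 10, 0 to 1 genes (day 30), 0 to 0 genes (day 50) and 0 to 2 genes (day 100), and it gave 1 to 2 for day 10 against the later days and 0 to 0 in the F test. For day 10 against the later days 2 genes passed without the day 100 arrays of cows 1 and 2, and 2 (CD14, and LBP by its probe at 1524) when any probe of a gene could pass. Of the values of single genes under the alternatives, 475 kept direction and call, 11 of CD14 lost the call, 3 of LBP gained it, and 31 uncalled values changed sign; the cause was not tested.

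Signs changed with scaling as follows: NOD1 0.05 at day 30 and 0.01 at day 100, LY96 0.19 at day 100 and TREM1 -0.11 for day 10 against later (array median); NOD2 -0.10 at day 50 and TLR5 0.47 at day 100 (normexp); TLR5 0.03 at day 100 (quantile). Without the day 10 array of cow 1 NOD2 was 0.22 at day 30. Without the day 100 arrays of cows 1 and 2, NOD2 was -0.04 and TLR2 at 3407 -0.18 at day 100, and MYD88 0.02 for day 10 against later. With 1 cow left out, the day 30 values ran from -0.64 to 0.45 (NOD1) and -0.50 to 0.13 (NOD2). Those of day 50 ran from -0.17 to 0.32 (MYD88), -0.18 to 0.06 (TREM1), -0.29 to 0.63 (NOD2) and -0.82 to 0.01 (TLR2 at 3407). Those of day 100 ran from -0.42 to 0.28 (LY96), -0.85 to 0.03 (TLR5), -0.49 to 0.02 (NOD1), -0.40 to 1.04 (NOD2) and -0.56 to 0.62 (TLR2). Day 10 against later ran from -0.15 to 0.18 (MYD88), -0.05 to 0.09 (TREM1) and -0.60 to 0.40 (NOD2).

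Scaling moved the median of all tested probes at day 100 against day 10 from -0.07 to 0.169 (array median) and 0.248 (normexp). Over all probes this comparison had 1041 lower and 486 higher calls, against 683 and 779 (array median), 548 and 1434 (normexp) and 826 and 643 (quantile). At day 50 the split was 350 and 198, and 313 and 302 with normexp. At day 30, 139 probes passed, 66 with normexp and 83 with array median. For day 10 against later 1100 higher and 482 lower calls became 582 and 636 (normexp), 875 and 607 (array median) and 1072 and 733 (quantile). Normexp left 9 of 92 pathway genes lower at day 100, against 18.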
